A study of Danio rerio with 8 samples.

Results

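The nuclear oxidative phosphorylation genes are the rows of the count table whose names begin with nduf, sdha to sdhd, uqcr, cox followed by a digit, or atp5. They numbered 111 of the 36109 genes in the table: 88 subunits of complexes I to V, 21 assembly and supercomplex factors, and 2 inhibitors of ATP synthase. By complex, the subunits were 37 of complex I, 5 of complex II, 8 of complex III, 21 of complex IV and 17 of complex V. The names set the members, and the family was picked with earlier results of these data known. The ndufa4 genes were placed with complex IV, where their mammalian counterpart is now assigned. The name rule takes in assembly factors that are no part of a finished complex, and it leaves out cyc1, a subunit of complex III, so the set is not identical with the nuclear-encoded subunits.

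Oxidative phosphorylation takes place in the inner membrane of mitochondria. Complexes I and II pass electrons from NADH and succinate to ubiquinone, complex III hands them to cytochrome c, and complex IV hands them to oxygen. Complexes I, III and IV pump protons as they do so, and complex V, the ATP synthase, makes ATP from the returning protons. Most subunits are encoded in the nucleus and imported, and a small core is encoded in the mitochondrial genome. The embryo draws on yolk for the fuel that feeds this chain. Roles given below are those known from mammals.

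Wild-type zebrafish embryos of the AB strain were kept from 1 to 24 hours after fertilization (hpf) in E64d at 3 µM or in its solvent DMSO, given as 0.5% for both groups. E64d enters cells and blocks cysteine proteases, a class that includes cathepsins of the lysosome. All embryos were in the medium labelled AFW-PTU and had the chorion nicked to let the compound in. Each group had 4 biological replicates, each a pool of 7 whole embryos, and total RNA was sequenced. In RNA of whole embryos, fewer cells of a type and less RNA per cell cannot be told apart.

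Libraries held 29422983 to 37309883 counts. DMSO replicate 2 stood apart: 0.888% of its counts came from the mitochondrial genome, against 1.32% to 2.03% in the other libraries. Of the 22163 genes tested across the table, 3.85% were lower in E64d and 2.28% higher at an adjusted p under 0.05 (edgeR quasi-likelihood test, Benjamini-Hochberg adjustment over all tested genes, to which all adjusted p-values refer unless another tool is named). Scaled by library totals alone, 498 genes were lower and 803 higher, in place of 853 and 506. Levels are CPM, that is counts relative to the TMM-adjusted library total, given as mean ± SD over 4 libraries, and errors of log2 fold changes (E64d minus DMSO) are standard errors. CPM is not corrected for transcript length, so levels are compared between groups and not between genes.

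Nuclear oxidative phosphorylation genes stood lower in E64d in all 5 complexes, with median log2 fold changes of the subunits from −0.31 for complex V to −0.18 for complex II. Of 101 tested members 26 fell and 0 rose, and the 26 were 25 subunits and 1 inhibitor of ATP synthase. Among the falls were atp5f1b, the catalytic beta subunit of ATP synthase, at 75.9% of its DMSO level, and uqcrc1, a core subunit of complex III, at 76.0%. The share of members that fell was 25.7%, against 3.85% of all tested genes. The median log2 fold change of the tested members was −0.22, against 0.01 over all tested genes. Below 0 lay 90 of the 101 members and 48.3% of all tested genes.

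Calls were more frequent among genes with more reads. Of the 38 members with a mean of at least 50 CPM 19 fell, which is 50%, against 11.3% of all 3983 genes at that level. Of the 63 members under 50 CPM 7 fell, which is 11.1%, against 3.85% of all tested genes at any level. The share of all genes under 50 CPM is not given here. The medians of these groups of members were −0.26 and −0.19 on the log2 scale. Over all genes of at least 50 CPM the median was −0.05. Below 0 lay 37 of the 38 members at that level and 59.4% of all genes at that level.

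At an unadjusted p under 0.05, 52 members were lower and 0 higher, against 2526 and 1901 of all 22163 tested genes. DESeq2 called 37 members lower and 0 higher, where 7.4% of the genes it tested were lower. limma-voom called 23 and 0, against 798 and 487 of all tested genes. With the replicate block, a term for the replicate number, 38 fell, against 6.95% of all tested genes. Scaled by library totals alone 11 members fell, against 2.25% of all tested genes, and the median was −0.13, while the median of all tested genes moved to 0.10. The count was 9 without DMSO replicate 3, and 11, 9 and 6 without E64d replicates 1, 2 and 4. Without DMSO replicate 2 it was 18, against 742 of all tested genes. For the other omissions, counts over all tested genes are not given here.

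In 40 of the 101 members the lowest DMSO library lay above the highest E64d library, and in 0 the reverse held. Such a complete separation downward was seen in 8.55% of all tested genes, and upward in 5.86%. At a mean of at least 50 CPM it was seen downward in 25 of 38 members and in 882 of all 3983 genes. Upward it was seen there in 0 members and 264 genes. Compared within replicate numbers, 59 members were lower in E64d in all 4 pairs (58.4%, against 17.4% of all tested genes). The median difference within numbers 1, 2, 3 and 4 was −0.19, −0.33, −0.21 and −0.23 on the log2 scale, where all tested genes had medians between −0.01 and 0.01. DMSO replicate 2 had the highest value of all 8 libraries in 49 members and the lowest in 14. E64d replicate 4 had the lowest in 27.

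**Figure D1:**
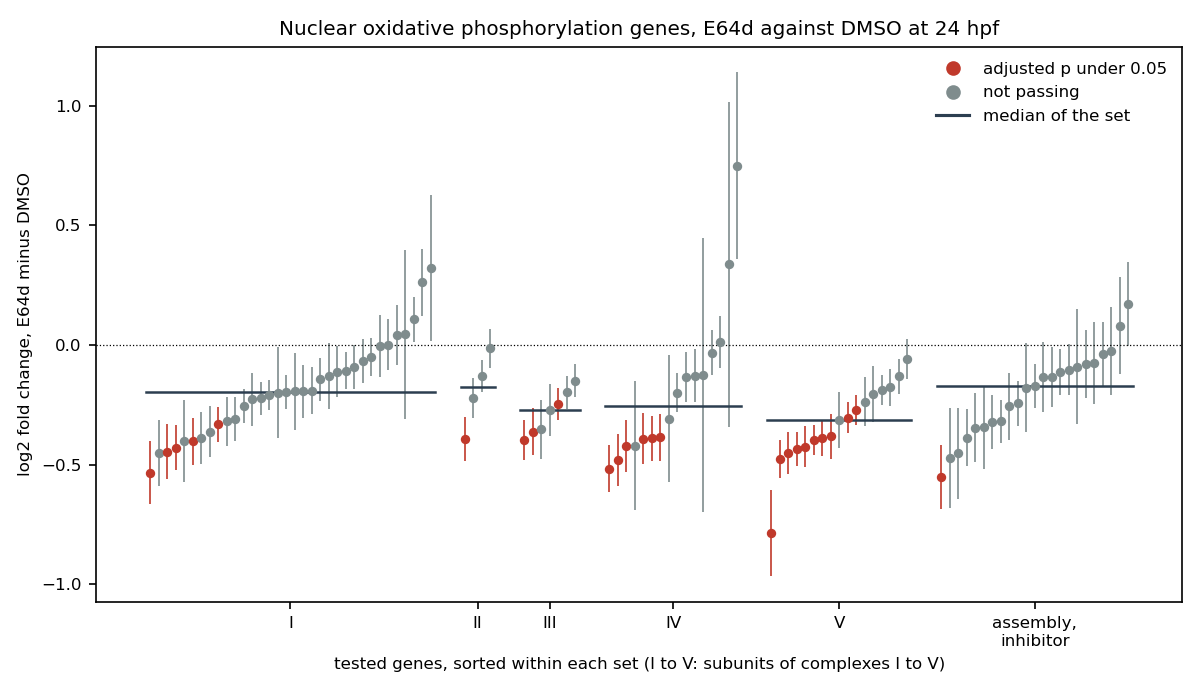
Log2 fold change (E64d minus DMSO, vertical axis) of each of the 101 tested genes with its standard error, sorted within the subunits of complexes I to V and within the assembly factors and inhibitors; red points passed at an adjusted p under 0.05 and lines mark each set's median. All 26 red points lie below 0, 10 of them among the 17 subunits of complex V, and the genes above 0 are grey.

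Complex V, the ATP synthase, had the most calls in the main test: 10 of its 17 tested subunits fell (58.8%). The share was 3.85% over all tested genes and 11.3% over those of at least 50 CPM. The complexes were not matched for level. All 17 lay below 0, with a median of −0.31 and a range of −0.79 to −0.06. Its summed subunit level was 3828 to 4310.2 CPM over the DMSO libraries and 3054 to 3239 CPM over the E64d libraries. Under library totals alone 7 of the 17 fell, with a median of −0.23. With the replicate block 11 of the 17 fell, against 11 of the 34 tested subunits of complex I. DESeq2 called 11 and 13.

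In the F1 portion, which holds the catalytic sites and the central shaft, 4 of 5 subunits fell (80%, against 3.85% of all tested genes). The beta subunit gene atp5f1b stood at 1056, 1150.2, 1126 and 1024 CPM in DMSO replicates 1 to 4 and 824, 830.2, 842 and 807 CPM in E64d replicates 1 to 4. Every DMSO library was above every E64d library, and the E64d libraries lay close together (log2 fold change −0.40 ± 0.06, adjusted p = 0.002). The alpha subunit gene atp5fa1 stood at 974, 1184, 1056 and 962 CPM in DMSO replicates 1 to 4 and 820.4, 786, 817 and 769 CPM in E64d replicates 1 to 4. The groups did not overlap, with DMSO replicate 2 the highest (−0.39 ± 0.08, adjusted p = 0.00882). The epsilon subunit gene atp5f1e fell from 53.4 ± 3.70 to 38.3 ± 1.91 CPM (−0.48 ± 0.08) and the delta subunit gene atp5f1d from 108 ± 2.92 to 89.6 ± 1.67 CPM (−0.27 ± 0.06, adjusted p = 0.0224). The gamma subunit gene atp5f1c, which encodes the rotating shaft, stood at 209.7 ± 15.4 and 192 ± 10.5 CPM and missed the threshold (−0.13 ± 0.07, adjusted p = 0.362).

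The peripheral stalk, which holds the head still, had 2 calls among 4 genes (50%, against 3.85% of all tested genes). atp5pb, its b subunit, stood at 229, 239, 229 and 209 CPM in DMSO replicates 1 to 4 and 177, 154, 174 and 167 CPM in E64d replicates 1 to 4. All DMSO values were above all E64d values (−0.44 ± 0.07, adjusted p = 0.00268). atp5pd, the d subunit, fell from 132 ± 16.4 to 96.9 ± 4.30 CPM (−0.45 ± 0.09). The oligomycin sensitivity subunit gene atp5po stood at 150.2 ± 17.6 and 144 ± 4.50 CPM (−0.06 ± 0.08, adjusted p = 0.765; with library totals as the only scaling, 0.02).

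The c ring is the rotor that protons turn, and its genes encode the same mature protein in mammals. Of these 3 genes atp5mc1 fell from 144 ± 5.17 to 117 ± 4.75 CPM (−0.30 ± 0.06) and atp5mc3a from 108 ± 8.55 to 80.4 ± 7.98 CPM (−0.42 ± 0.09). The third gene, atp5mc3b, stood at 377, 382, 368 and 375 CPM in DMSO replicates 1 to 4 and 329, 333, 347 and 309 CPM in E64d replicates 1 to 4. Its groups did not overlap, and it did not pass (−0.19 ± 0.06, adjusted p = 0.0963, and 0.0355 with DESeq2).

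Among the membrane accessory subunits atp5l, the g subunit, had the steepest fall of all members, at 107, 212, 133 and 111 CPM in DMSO replicates 1 to 4 and 77.3, 91.6, 80.2 and 76.6 CPM in E64d replicates 1 to 4. DMSO replicate 2 lay far above the other DMSO libraries, and all DMSO libraries were above the E64d libraries (−0.79 ± 0.18, adjusted p = 0.0223). Without DMSO replicate 2 the log2 fold change was −0.52 and it passed (adjusted p = 0.00496). atp5mf, the f subunit, fell from 83.2 ± 9.10 to 63.9 ± 5.69 CPM, with overlapping groups (−0.38 ± 0.09). The e subunit gene atp5meb stood at 51.0 ± 6.32 and 43.3 ± 4.38 CPM and missed the threshold (−0.24 ± 0.10, adjusted p = 0.22).

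The inhibitory factor of ATP synthase, which blocks ATP breakdown when the proton gradient fails, has 2 gene copies here. atp5if1b fell from 36.8 ± 6.99 to 25.1 ± 3.04 CPM (−0.55 ± 0.13, adjusted p = 0.0305). atp5if1a stood at 52.7 ± 5.71 and 48.7 ± 4.64 CPM (−0.11 ± 0.10, adjusted p = 0.589).

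Of these calls, those of atp5f1b, atp5fa1, atp5f1e, atp5pb and atp5pd held in all 15 alternatives. Those of atp5mc3a (without E64d replicate 4) and atp5l (without E64d replicates 1, 3 or 4) ended in some (adjusted p as high as 0.0608 and 0.0864). The call of atp5mc1 was lost on omitting DMSO replicate 3 or E64d replicate 2 or 4 (as high as 0.0681), that of atp5if1b on omitting any library but DMSO replicates 1 and 4 and E64d replicate 3 (as high as 0.0959), and that of atp5mf on omitting any but DMSO replicate 1 and E64d replicate 3 (as high as 0.109). atp5f1d passed without DMSO replicate 2 and in no other omission (as high as 0.085). Library totals alone also ended the calls of atp5mc1, atp5f1d, atp5mf and atp5if1b (adjusted p = 0.0778, 0.129, 0.0806 and 0.0505).

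**Figure D2:**
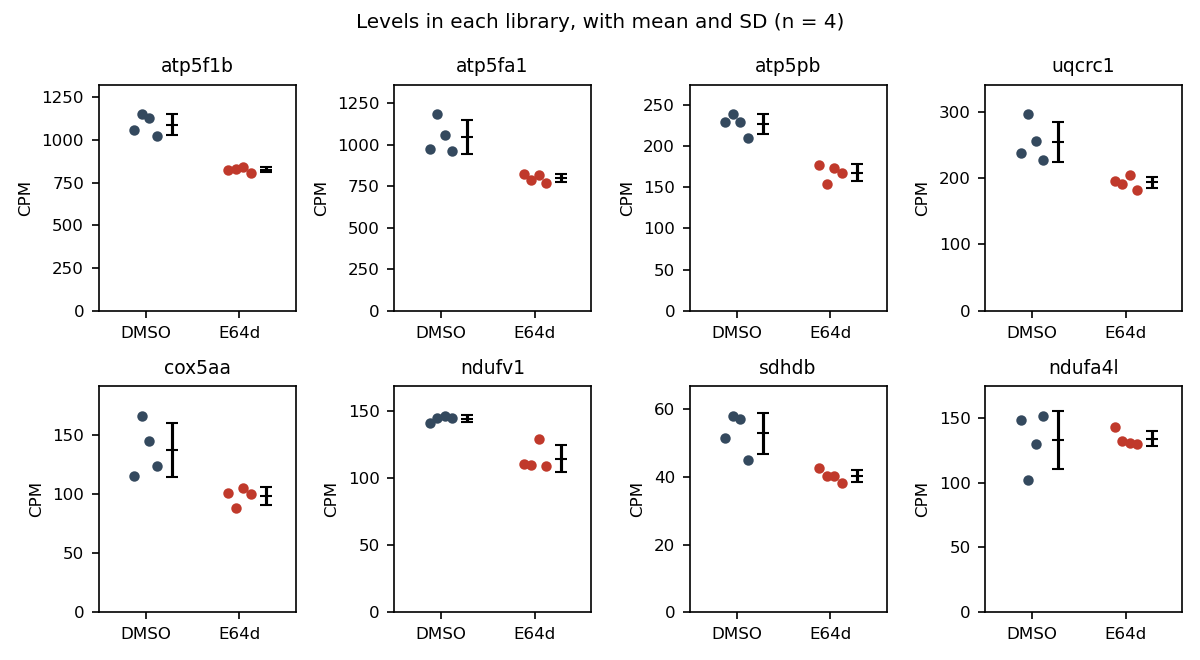
Levels in CPM (vertical axes, from 0) of 8 genes in each library, dark points for DMSO and red points for E64d, with the mean and SD of 4 libraries beside them. In all panels except ndufa4l, which did not pass, every DMSO library lies above every E64d library.

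Complex IV, cytochrome c oxidase, had 6 calls among 16 tested subunits (37.5%). The share was 3.85% over all tested genes and 11.3% over those of at least 50 CPM. The complex had a median of −0.25 and a range of −0.52 to 0.75. Its summed subunit level was 1068 to 1231 CPM in DMSO and 902 to 971 CPM in E64d. cox8a, a small membrane subunit, stood at 85.0, 111, 86.8 and 83.3 CPM in DMSO replicates 1 to 4 and 68.5, 66.3, 60.4 and 60.5 CPM in E64d replicates 1 to 4. The DMSO libraries were all higher, replicate 2 most of all (−0.52 ± 0.10, adjusted p = 0.00728), and this call held in all 15 alternatives. cox5aa, a subunit on the matrix side, stood at 115, 166, 144 and 123 CPM in DMSO replicates 1 to 4 and 101, 88.0, 105 and 100.2 CPM in E64d replicates 1 to 4. DMSO lay wholly above E64d (−0.48 ± 0.11, adjusted p = 0.0213). Its copy cox5ab fell from 63.3 ± 8.95 to 47.3 ± 5.20 CPM, with overlapping groups (−0.42 ± 0.11). cox6b2, a subunit on the intermembrane space side, fell from 155 ± 19.9 to 119 ± 8.42 CPM (−0.39 ± 0.09) and cox7c from 77.9 ± 12.3 to 59.4 ± 4.74 CPM (−0.39 ± 0.11, adjusted p = 0.0499).

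The cox4i genes encode the subunit through which ATP inhibits the enzyme, and in mammals the second isoform is used in low oxygen and in lung. cox4i1 stood at 197, 256, 232 and 184 CPM in DMSO replicates 1 to 4 and 166, 159.6, 177 and 163 CPM in E64d replicates 1 to 4. All DMSO values were higher (−0.39 ± 0.10, adjusted p = 0.035). cox4i2 stood at 1.202, 0.845, 0.368 and 1.22 CPM in DMSO replicates 1 to 4 and 1.17, 1.76, 1.45 and 1.74 CPM in E64d replicates 1 to 4, from 12 to 60 counts per library. Its groups overlapped and it did not pass (0.75 ± 0.39, adjusted p = 0.32).

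The further isoform genes of complex IV given next did not pass, while cox6b2, of the same family as cox6b1, fell as given above. cox6a1 stood at 80.8 ± 9.97 and 79.1 ± 6.04 CPM (−0.03 ± 0.09; with library totals as the only scaling, 0.05), and the isoform of striated muscle, cox6a2, at 2 to 24 counts per library (0.34 ± 0.68). cox6b1 stood at 13.1 ± 4.99 and 10.6 ± 3.04 CPM (−0.31 ± 0.26) and cox7a2a at 45.1 ± 6.54 and 41.3 ± 3.73 CPM (−0.13 ± 0.11). The ndufa4 family includes ndufa4l2, whose mammalian gene is induced by low oxygen. ndufa4l stood at 148, 102, 129.5 and 152 CPM in DMSO replicates 1 to 4 and 143, 132, 131 and 130.0 CPM in E64d replicates 1 to 4. The groups overlapped, and DMSO replicate 2 was the lowest of all (0.01 ± 0.11, adjusted p = 0.967; −0.09 without that library). ndufa4 stood at 18.8 ± 6.02 and 14.03 ± 5.02 CPM (−0.42 ± 0.27, adjusted p = 0.437) and ndufa4l2a at 6 to 36 counts per library (−0.12 ± 0.57).

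Omitting single libraries ended 5 of these 6 calls. Those of cox5aa and cox6b2 ended on omitting DMSO replicate 3 or an E64d library other than replicate 3 (adjusted p as high as 0.0696 and 0.0959), and that of cox5ab also without DMSO replicate 2 (as high as 0.142). Those of cox4i1 and cox7c ended without DMSO replicates 2 or 3 or any 1 E64d replicate (as high as 0.116 and 0.171). Under library totals alone cox8a and cox5aa kept their calls, and the other 4 did not pass (adjusted p = 0.0569 to 0.0904). The call of cox7c was also lost with limma-voom, with DESeq2 size factors and with counts divided by 2.

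In complex III, the cytochrome bc1 complex, 3 of 7 tested subunits fell (42.9%). The share was 3.85% over all tested genes and 11.3% over those of at least 50 CPM. All 7 lay below 0, with a median of −0.27 and a range of −0.40 to −0.15. With the replicate block 4 of the 7 fell. The summed level was 821 to 994 CPM in DMSO and 698 to 736 CPM in E64d. uqcrc1 stood at 238, 296, 256 and 227 CPM in DMSO replicates 1 to 4 and 195, 191, 204 and 182 CPM in E64d replicates 1 to 4. Every DMSO library was above every E64d library (−0.40 ± 0.08, adjusted p = 0.0158). The other core gene called, uqcrc2b, fell from 154 ± 23.1 to 119.7 ± 6.53 CPM (−0.36 ± 0.10), while its copy uqcrc2a stood at 126 ± 9.44 and 114 ± 1.88 CPM without overlap and did not pass (−0.15 ± 0.07, adjusted p = 0.257). uqcrfs1, the Rieske iron-sulfur protein that takes electrons from ubiquinol, fell from 179 ± 10.9 to 151 ± 5.25 CPM (−0.25 ± 0.07, adjusted p = 0.0494). cyc1, the cytochrome c1 subunit outside the name rule, fell from 202 ± 6.53 to 169 ± 5.72 CPM (−0.25 ± 0.06).

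The call of uqcrc1 ended without E64d replicates 2 or 4 (adjusted p as high as 0.0714). That of uqcrc2b passed only without DMSO replicates 1 or 4 among the omissions (as high as 0.159), and that of uqcrfs1 passed in none of the 8 (as high as 0.168). Under library totals alone uqcrc1 was the only 1 of the 3 to pass, and cyc1 did not (adjusted p = 0.118). uqcrc2b and uqcrfs1 also missed the threshold with DESeq2 size factors and with counts divided by 2, uqcrc2b with limma-voom, and uqcrfs1 with no filter. cyc1 passed without DMSO replicates 2 or 4 and in no other omission (as high as 0.115).

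Complex I, the NADH dehydrogenase, is the largest of the complexes and had 5 calls among 34 tested subunits (14.7%, against 3.85% of all tested genes). With the replicate block 11 of the 34 fell, and DESeq2 called 13 lower. The median of complex I was −0.20 and its range −0.53 to 0.32, with 28 subunits below 0. The summed level was 1406 to 1502 CPM in DMSO and 1239 to 1322 CPM in E64d. Of the 6 tested core subunits 1 fell, ndufv1, which binds NADH and the flavin that takes its electrons. It stood at 141, 145, 147 and 145 CPM in DMSO replicates 1 to 4 and 110.4, 109.9, 129 and 109 CPM in E64d replicates 1 to 4. The DMSO libraries lay close together and above all E64d libraries, of which replicate 3 was the highest (−0.33 ± 0.07, adjusted p = 0.0171). Among the other core genes, ndufs7 stood at 71.3 ± 11.8 and 54.5 ± 3.45 CPM (−0.39 ± 0.11, adjusted p = 0.0552, and 0.0285 with the replicate block), without overlap between the groups.

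Accessory subunits do not carry electrons. Of 26 tested, 3 fell (11.5%, against 3.85% of all tested genes). ndufa8 stood at 44.7, 69.6, 52.5 and 42.8 CPM in DMSO replicates 1 to 4 and 37.1, 33.8, 37.6 and 36.4 CPM in E64d replicates 1 to 4. DMSO lay above E64d throughout, with replicate 2 far above the rest (−0.53 ± 0.13, adjusted p = 0.034). ndufb7 fell from 49.96 ± 6.36 to 37.8 ± 2.35 CPM (−0.40 ± 0.10) and ndufa5 from 21.2 ± 2.88 to 15.5 ± 0.782 CPM (−0.45 ± 0.11). ndufb3, with a log2 fold change of −0.45 ± 0.14, and ndufa10, with −0.26 ± 0.07, did not overlap between groups and did not pass (adjusted p = 0.0773 and 0.0551, and 0.0243 and 0.024 with the replicate block). The highest log2 fold changes were those of ndufa9b (0.32 ± 0.31) and ndufb6 (0.26 ± 0.14), both short of the threshold (adjusted p = 0.631 and 0.332).

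The acyl carrier protein of complex I, which also serves fatty acid synthesis in mitochondria, has 2 copies. ndufab1b stood at 42.1, 54.4, 48.8 and 44.2 CPM in DMSO replicates 1 to 4 and 36.9, 36.0, 35.5 and 32.5 CPM in E64d replicates 1 to 4. The DMSO libraries were all higher (−0.43 ± 0.09, adjusted p = 0.0168). ndufab1a stood at 44.2, 30.0, 38.2 and 49.8 CPM in DMSO replicates 1 to 4 and 44.1, 38.3, 39.3 and 39.8 CPM in E64d replicates 1 to 4. Its groups overlapped, and DMSO replicate 2 was the lowest (0.00 ± 0.13, adjusted p = 0.99; with library totals as the only scaling, 0.07).

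All 5 calls of complex I ended in some omission: those of ndufv1 and ndufb7 without DMSO replicate 3 or E64d replicates 1, 2 or 4, that of ndufa8 without DMSO replicate 3 or any 1 E64d replicate, that of ndufa5 in all omissions but DMSO replicate 1, and that of ndufab1b when DMSO replicate 3 or E64d replicate 4 was left out (adjusted p as high as 0.0759, 0.112, 0.103, 0.128 and 0.0733). Under library totals alone ndufab1b passed and the other 4 did not (adjusted p = 0.0525 to 0.0794). limma-voom also ended the call of ndufa5. ndufb3 passed without DMSO replicate 1, ndufs7 without DMSO replicate 4 and ndufa10 without E64d replicate 3.

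Complex II, succinate dehydrogenase, is wholly encoded in the nucleus and belongs to the citric acid cycle as well. Of its 4 tested subunits 1 fell (25%, against 3.85% of all tested genes), and the median was −0.18. sdhdb, a membrane anchor, stood at 51.3, 58.0, 56.9 and 44.8 CPM in DMSO replicates 1 to 4 and 42.4, 40.1, 40.1 and 38.1 CPM in E64d replicates 1 to 4. All DMSO libraries were above all E64d libraries (−0.39 ± 0.09, adjusted p = 0.0236), and the call ended without DMSO replicate 3, without E64d replicates 2, 3 or 4 and under library totals alone (adjusted p as high as 0.0939). The iron-sulfur subunit gene sdhb stood at 75.2 ± 5.91 and 64.4 ± 5.40 CPM (−0.22 ± 0.08, adjusted p = 0.148, and 0.0447 with the replicate block). The flavoprotein gene sdha stood at 148 ± 6.57 and 135 ± 5.53 CPM (−0.13 ± 0.07) and the other anchor gene, sdhc, at 28.1 ± 1.54 and 27.9 ± 1.02 CPM (−0.01 ± 0.08). The sign for sdhc was reversed under library totals alone (0.07).

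The summed level of the 26 called members was 4494 to 5456 CPM in DMSO and 3555 to 3827 CPM in E64d. Over all 101 tested members the sum took 0.793% ± 0.0164 of the counts in DMSO and 0.685% ± 0.0159 in E64d (SD, n = 4), without overlap.

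**Figure D3:**
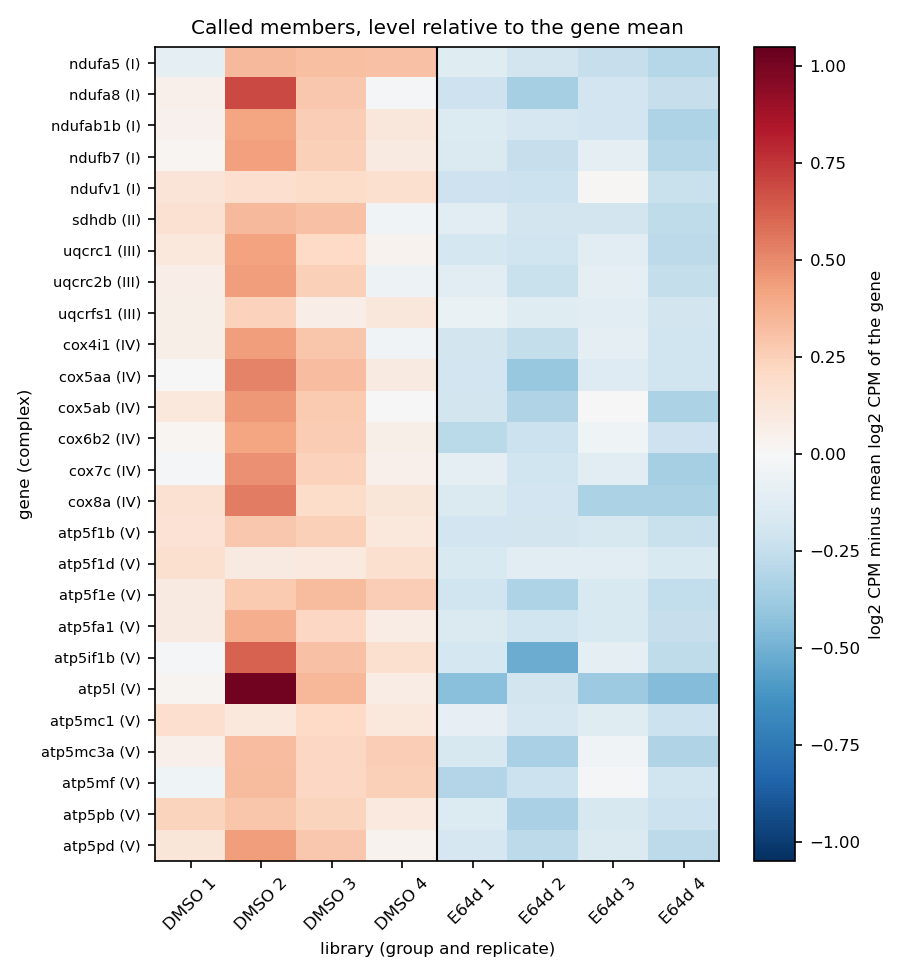
Level of each of the 26 called genes (rows, with the complex in brackets) in each library (columns), as log2 CPM minus the gene's mean log2 CPM; red is above and blue below the mean. DMSO replicate 2 is the deepest red in most rows, and the 4 E64d columns are blue or near 0 throughout.

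Assembly factors, which build the complexes and are not part of the finished enzymes, and the supercomplex factor cox7a2l gave 0 calls among 21 tested with edgeR. Of all tested genes 3.85% were lower. All 21 had a mean under 50 CPM and are themselves among the 63 tested members at that level. Of those 63, 7 fell (11.1%), none of them among the 21. The median of the 21 was −0.17 and 19 lay below 0. At an unadjusted p under 0.05, 7 were lower and 0 higher, DESeq2 called 2 and limma-voom 0, and 3 fell with the replicate block. By complex the medians were −0.24 for the 7 factors of complex I, 0.00 for the 4 of complex II (0.09 under library totals alone) and −0.15 for the 10 of complex IV. cox7a2l, which joins complexes III and IV into supercomplexes in mammals, stood at 37.2, 36.8, 41.0 and 37.5 CPM in DMSO replicates 1 to 4 and 33.3, 27.0, 29.0 and 32.8 CPM in E64d replicates 1 to 4. The groups did not overlap, and it did not pass (−0.32 ± 0.09, adjusted p = 0.0573, and 0.0287 with the replicate block). cox17, a copper chaperone, did not overlap either (−0.39 ± 0.12, adjusted p = 0.0814, and 0.0382 with the replicate block). Whether assembly factors and subunits differed in response was not tested.

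The remaining 10 members did not pass the filter on low counts: cox4i1l, cox5b2, cox7a1, cox8b, ndufa4l2b, ndufb4, ndufs1, ndufs8b, sdhda and uqcrb. Their libraries held between 0 and 22 counts each, and ndufb4 held 0 in all 8. They include ndufs1, the largest core subunit of complex I, with 0 or 1 count per library, and uqcrb, a subunit of complex III, with 0 to 9. Why these entries drew so few reads, including whether the annotation carries the same gene under another name, was not tested.

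Copies and isoforms of the same subunit were compared by the log2 ratio of their levels in each library, in 11 pairs. None of the 11 ratios passed after adjustment (smallest adjusted p = 0.236), and the smallest p that 4 against 4 libraries allow is 0.0286. From that floor 1 ratio alone could not pass after adjustment over 11. The ratio of cox4i1 to cox4i2 was 8.04 ± 0.954 in DMSO and 6.78 ± 0.308 in E64d (SD, n = 4; 2-sided exact permutation test over libraries, p = 0.0286, 0.236 after Benjamini-Hochberg adjustment). The values did not overlap, but they rest on the few counts of cox4i2. The ratio of atp5mc3a to atp5mc3b was −1.80 ± 0.114 in DMSO and −2.04 ± 0.105 in E64d (SD, n = 4; 2-sided exact permutation test over libraries, p = 0.0571, 0.236 after Benjamini-Hochberg adjustment). For atp5if1a over atp5if1b it was 0.53 ± 0.237 in DMSO and 0.96 ± 0.247 in E64d (SD, n = 4; 2-sided exact permutation test over libraries, p = 0.0857, 0.236 after Benjamini-Hochberg adjustment). For ndufab1a over ndufab1b it was −0.24 ± 0.47 in DMSO and 0.20 ± 0.0943 in E64d (SD, n = 4; 2-sided exact permutation test over libraries, p = 0.114, 0.251 after Benjamini-Hochberg adjustment), with DMSO replicate 2 the lowest. Within replicate numbers the difference had the same sign in all 4 pairs of libraries for 5 of the 11 ratios (cox4i1 over cox4i2, atp5mc3a over atp5mc3b, ndufab1a over ndufab1b, uqcrc2a over uqcrc2b and ndufa9a over ndufa9b). A 2-sided exact permutation test within numbers, added after the values were seen, gave p = 0.125 for each of these, the smallest that 4 pairs allow, and 0.275 after Benjamini-Hochberg adjustment. Differences of the 11 mean ratios ranged from −1.25 to 0.44. Reads that fit both copies of a pair may have been split or dropped, and the balance between such copies is uncertain.

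**Figure D4:**
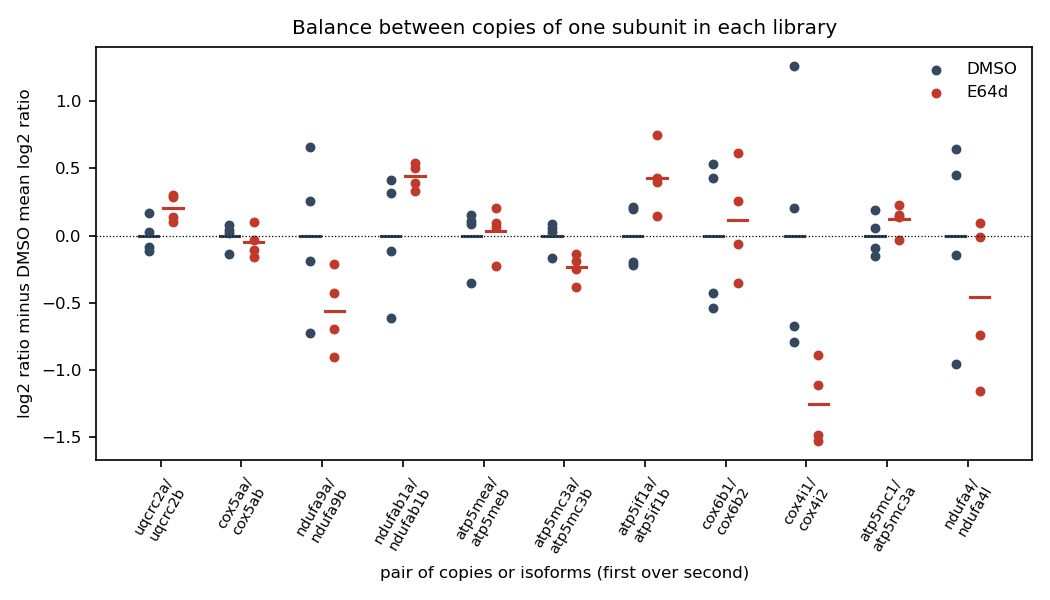
Log2 ratio of the first to the second gene of 11 pairs in each library, minus the DMSO mean ratio (vertical axis), dark points for DMSO and red for E64d, with lines at the group means. The groups overlap in most pairs and lie apart for cox4i1 over cox4i2, where E64d is lower.

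Genes that feed the chain or act beside it are outside the name rule. Of 13 tested electron carriers and feeders 4 fell, with a median of −0.20: cyc1, etfa, etfb and aifm1. That is 30.8%, against 3.85% of all tested genes and 11.3% of those of at least 50 CPM. All 4 were at that level. etfb, a part of the flavoprotein that brings electrons from fatty acid oxidation, fell from 139 ± 17.7 to 101 ± 2.61 CPM (−0.45 ± 0.09), and aifm1, an oxidoreductase needed for complex I assembly, from 110.1 ± 7.51 to 80.9 ± 8.24 CPM (−0.44 ± 0.08). Of 34 tested assembly factors with other names 3 fell (8.82%), aifm1 among them, and the median was −0.18. Of 13 carriers, uncoupling proteins and outer membrane channels (vdac1, vdac2 and vdac3) 3 fell (23.1%), with a median of −0.23. The phosphate carrier gene slc25a3b fell from 824 ± 81.5 to 642 ± 19.9 CPM (−0.36 ± 0.08), a call that ended without E64d replicate 4 (adjusted p = 0.0641). Uncoupling proteins belong to a carrier family that lets protons or metabolites cross the inner membrane. ucp1 fell from 30.7 ± 4.84 to 11.1 ± 1.42 CPM (−1.46 ± 0.14) and ucp2 from 155 ± 18.5 to 81.0 ± 9.20 CPM (−0.93 ± 0.10). ucp3 (0.00 ± 0.45), slc25a14 (−0.30 ± 0.11) and slc25a27 (−0.32 ± 0.25) of the same family did not pass (adjusted p = 0.999, 0.13 and 0.547). With the replicate block the falls numbered 5 among the electron carriers and feeders and 6 among the assembly factors with other names. Among the carriers, uncoupling proteins and channels they numbered 5, and 6.95% of all tested genes fell with the block. With library totals as the only scaling the falls in these lists were 2, 1 and 3.

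Of 31 tested citric acid cycle and pyruvate enzymes 4 fell and 1 rose, with a median of −0.11 (−0.03 under library totals alone). The falls were 12.9% of the list, against 3.85% of all tested genes and 11.3% of those of at least 50 CPM. The list also holds the cytosolic enzymes aco1, mdh1aa and mdh1ab, of which mdh1aa was among the 4 falls. pcxb, a pyruvate carboxylase, stood at 424, 362, 437 and 389 CPM in DMSO replicates 1 to 4 and 282, 240.4, 288 and 285 CPM in E64d replicates 1 to 4. The groups were far apart (−0.56 ± 0.08, adjusted p = 0.00126). pdk3a, a kinase that switches off pyruvate dehydrogenase, stood at 7.81, 4.37, 7.31 and 7.37 CPM in DMSO replicates 1 to 4 and 13.5, 14.8, 11.2 and 14.4 CPM in E64d replicates 1 to 4. It was higher in every E64d library (1.00 ± 0.18, adjusted p = 0.00507). With the replicate block 9 enzymes of the list fell and 3 rose, in place of 4 and 1. Over all 22163 tested genes the block gave 1540 falls and 1040 rises, in place of 853 and 506. Library totals as the only scaling gave 1 fall, that of pcxb, and 2 rises.

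Among 17 tested regulators of mitochondrial transcription and biogenesis 1 fell, tfb2m, a transcription factor of the mitochondrial genome, from 23.7 ± 0.684 to 18.9 ± 0.809 CPM (−0.32 ± 0.09, adjusted p = 0.0448). It passed in none of the 8 omissions (adjusted p as high as 0.126). With the replicate block 2 regulators fell, where 6.95% of all tested genes did, and with library totals as the only scaling 0 fell. Over the list the share that fell in the main test was 5.88%, against 3.85% of all tested genes, and the median was −0.19. Of the 12 tested protein genes of the mitochondrial genome, whose products join those above in the complexes, 0 passed with edgeR, DESeq2 or limma-voom, 0 had an unadjusted p under 0.05, 1 rose with the replicate block, and their median was 0.26, or 0.06 without DMSO replicate 2. Their summed level was 9128 to 19116 CPM in DMSO and 16725 to 19209.5 CPM in E64d, with DMSO replicate 2 the lowest, and the difference between nuclear and mitochondrial genes was not tested.

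Marker genes of tissues were read beside these values. Markers of the yolk syncytial layer and liver summed to 12678 to 14570.1 CPM in DMSO and 9544 to 11866 CPM in E64d. Of 7 tested, 2 fell (28.6%, against 3.85% of all tested genes), mttp (−2.86 ± 0.12) and tfa (−1.09 ± 0.10). Gene by gene 5 lay below 0 and 2 above, ttr (0.91 ± 0.65) and fabp10a (0.32 ± 0.44), both with few counts. Markers of periderm, the outer skin, summed to 23580.5 to 29232 CPM in DMSO and 22006 to 23798 CPM in E64d. All 5 lay below 0 and 1 fell (20%), cyt1 (−0.39 ± 0.07). Muscle markers summed to 10523 to 13448 CPM and 10957 to 12032 CPM, erythroid markers to 295 to 935 CPM and 281 to 729.8 CPM, and neither list had a call among its 14 and 6 genes. Neural markers summed to 1196 to 1435 CPM and 1455 to 1497 CPM, and notochord and hatching gland markers to 1459 to 1649 CPM and 1650.0 to 1760.2 CPM, with 0 calls among 6 and 4 genes. The summed levels lay wholly lower in E64d for the yolk syncytial layer and liver. They lay wholly higher for the neural and the notochord and hatching gland markers, and overlapped for the muscle, erythroid and periderm markers. Such sums follow the genes with the most counts. Gene by gene, 4 neural markers lay above 0 and 2 below, with a median log2 fold change of 0.14. Of the notochord and hatching gland markers 2 lay above 0 and 2 below, with a median of −0.004. Germ cell and maternal markers summed to 8.50 to 10.4 CPM and 8.10 to 8.83 CPM, with 0 calls among 4 genes. With DESeq2 and limma-voom these 5 lists also had 0 calls, and at an unadjusted p under 0.05 they had 3, 0, 2, 2 and 0 genes in either direction. Of all 22163 tested genes 2526 were lower and 1901 higher at that threshold. With the replicate block 1 muscle marker fell, and 1 erythroid, 2 neural and 1 notochord or hatching gland marker rose. Scaled by library totals alone, 1 notochord or hatching gland marker rose. Of the lists with calls, the block gave 4 falls among the yolk syncytial layer and liver markers and 2 among those of periderm. Over all 22163 tested genes it gave 1540 falls and 1040 rises. No listed marker was at 0 in all libraries. The part of these tissues in the falls of the oxidative phosphorylation genes was not tested.

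**Figure D5:**
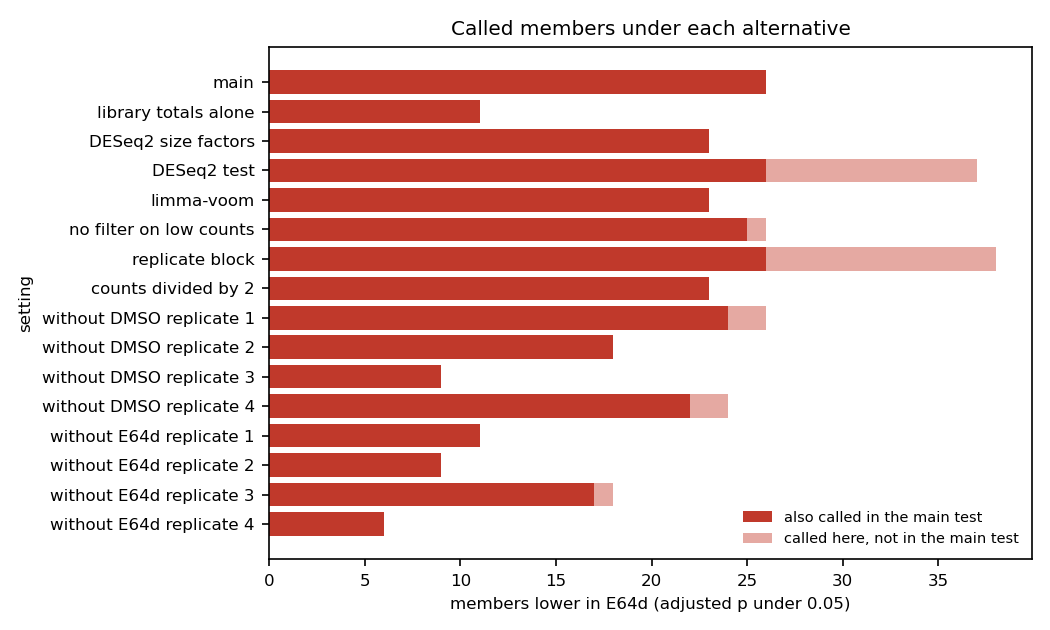
Number of members lower in E64d at an adjusted p under 0.05 (horizontal axis) in the main test and 15 alternatives, dark for genes also called in the main test and pale for others. The count is 26 in the main test, 38 with the replicate block and 6 without E64d replicate 4.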

How the data were processed

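Raw counts per gene were taken as the authors deposited them, 1 column per library, and a further 6 columns that name no sample were left aside. The submitters' processing notes list featureCounts 2.0.6, STAR 2.7.10b, Trim Galore 0.6.10 and FastQC 0.12.1, and GRCz11 as the genome build. Which annotation and strand setting were used, and how multiply mapping reads were treated, is not given in the sources used here, so overlapping genes and near-identical copies are uncertain. Sample titles gave the groups and the replicate numbers. Libraries held 29422983 to 37309883 counts, and 75.9% to 80.7% of values between 1 and 20 were even numbers, an excess whose source was not tested.

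Low genes were removed with edgeR's filterByExpr (default settings), and the rest were scaled by TMM and tested with edgeR 4.0.16 (R 4.3.3) by the quasi-likelihood test over 22163 genes, at a Benjamini-Hochberg adjusted p under 0.05. The common biological coefficient of variation was 20.0%. The alternatives were library totals, DESeq2 size factors, DESeq2 1.42.0, limma-voom (limma 3.58.1), no filter, the replicate block, counts divided by 2 and each library left out. Differences within a replicate number were taken on log2(CPM + 0.1).

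Deviations from group means correlated at 0.153 to 0.457 between libraries of the same number and at −0.27 to 0.121 between others. By the rule that all 4 exceed 0.1 the numbers were taken to pair the libraries, a pairing that comes from the data and that no label states. DMSO replicate 3 with E64d replicate 4, of different numbers, also exceeded 0.1 (0.121). Blocked values are given where they change the call of a gene with printed values or a count of calls in a list.

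The members and the 13 lists were chosen with earlier results of these data known. Genes were named by a rule that took the 24 called members with the smallest p, the 2 subunits of each complex with the largest change among those of at least 1 CPM, the isoform families cox4i, cox6a, cox6b, cox7a, cox8, ndufa4 and atp5mc, and 1 called gene per list and direction. It gave 43 genes. A ranking by count per kilobase, also part of the rule, was left out because no transcript lengths were used. A further 21 genes, and ucp3, slc25a14 and slc25a27, were chosen after their values were seen, of which 1 is not reported here. Of the 111 member names 108 matched a RefSeq symbol (assembly GRCz12tu, names only) and 2 a synonym. Sequences and coordinates are not used here.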

Additional observations from a re-analysis of the deposited data

Results flagged for a closer look

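Of 128 groups of 4 libraries (64 genes in 2 groups), 11 held a library whose gap to its nearest neighbour took more of the group's range than Dixon's 95% critical value for 4 samples allows, where chance gives about 1 in 20. cox8a stood at 111 CPM in DMSO replicate 2, above the 83.3 to 86.8 CPM of the other DMSO libraries. ndufv1 stood at 129 CPM in E64d replicate 3, above the 109 to 110.4 CPM of the other E64d libraries. ndufa5 stood at 16.9 CPM in DMSO replicate 1, below the 22.4 to 22.9 CPM of the other DMSO libraries. cox7a2l stood at 41.0 CPM in DMSO replicate 3, above the 36.8 to 37.5 CPM of the other DMSO libraries. ndufa4l stood at 143 CPM in E64d replicate 1, above the 130.0 to 132 CPM of the other E64d libraries. ndufa4l2a stood at 0.985 CPM in E64d replicate 4, above the 0.453 to 0.519 CPM of the other E64d libraries. aifm1 stood at 93.3 CPM in E64d replicate 3, above the 76.3 to 77.4 CPM of the other E64d libraries. pcxb stood at 240.4 CPM in E64d replicate 2, below the 282 to 288 CPM of the other E64d libraries. pdk3a stood at 4.37 CPM in DMSO replicate 2, below the 7.31 to 7.81 CPM of the other DMSO libraries. sdha stood at 144 CPM in E64d replicate 4, above the 132 to 133 CPM of the other E64d libraries. tfa stood at 2408 CPM in DMSO replicate 2, above the 1734 to 1825 CPM of the other DMSO libraries. DMSO replicate 2 accounts for 3 of these.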

How the results depend on the processing

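No alternative gave a member that rose. The 26 falls numbered 11 under library totals alone, 37 with DESeq2, 38 with the replicate block, and 6 to 26 when single libraries were left out. The median of the members, −0.22, was −0.13 under library totals alone, where the median of all tested genes went to 0.10, and lay between −0.24 and −0.20 over the omissions. The calls of 6 members (atp5f1b, atp5fa1, atp5f1e, atp5pb, atp5pd and cox8a) held in all 15 alternatives, and all 26 were kept with DESeq2 and with the replicate block. With the block 1540 of all tested genes were lower, or 6.95%. It added calls and ended none among the members. Among the 64 named genes, log2 fold changes changed sign for some that did not pass in the main test. Under library totals alone these were cox6a1 (0.0501), ndufab1a (0.0746), atp5po (0.0226) and sdhc (0.0718). Further members that changed sign under library totals alone were ndufb8 (0.0164), ndufv2 (0.0343), ndufaf7 (0.0476), cox18 (0.0106), cox20 (0.0658) and sdhaf2 (0.00766). The other alternatives with all libraries changed the sign of named genes as follows: ndufa4l2a (0.13) and ndufab1a (0.0192) with limma-voom, ndufab1a (0.00388) with no filter, ndufa4l2a (0.0694) and ndufab1a (0.0169) with the replicate block, ndufab1a (0.00313) with counts divided by 2. Over the omissions of 1 library each, values ranged for cox6a1 from −0.0989 to 0.0389, cox6a2 from −0.0187 to 1.24, ndufa4l from −0.0913 to 0.0822, ndufa4l2a from −0.453 to 0.234, ndufab1a from −0.121 to 0.109 and sdhc from −0.0329 to 0.0212. Few counts limit the precision for cox4i2, cox6a2 and ndufa4l2a. The cause of these shifts was not tested.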
